A study of Mus musculus with 6 samples.

Results

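The genes described here are 44 adhesion, junction, keratin and regulator genes of embryonic surface ectoderm, the thin epithelium that covers the limb bud. They were taken by gene symbol from a list, and 38 of the 44 were among the 12065 genes of the expression table. Krt15, Grhl1, Cldn3, Pkp2, Ovol1 and Lgals7 were not in it and count as not measured. All 38 passed a filter of at least 1 CPM in 3 libraries, where CPM is the read count scaled to a library's effective size (its total after the authors' scaling). By role the 38 were 6 adhesion genes, 6 keratins, 6 transcription and splicing regulators, 6 tight junction genes, 7 desmosome genes, 4 membrane proteases or inhibitors and 3 others.

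RNA came from the distal tips of mouse limb buds, pooled from 2 embryos per library. All embryos were homozygous for R26Meis2a-IRES-EYFP, which holds isoform a of the homeobox gene Meis2 and a fluorescent reporter in the Rosa26 locus. The 3 overexpressing pools also carried HoxB6CreER, a Cre recombinase that tamoxifen switches on, and the 3 control pools did not, so an effect of Cre itself and one of Meis2 cannot be told apart. Every dam received 0.8 mg of 4-hydroxy-tamoxifen at embryonic day 8.3, and each genotype had 1 pool at 37, 38 and 39 somites. HoxB6 drives Cre in lateral mesoderm, the source of limb mesenchyme, and recombination in the ectoderm was not analysed here. Replicates 1 to 3 of a genotype are these 3 stages, so p-values set a difference against the spread over pools of different age. The libraries held 7622698 to 15395447 recovered reads. Meis2 itself stood at 20.6, 15.3 and 13.8 CPM in the controls and at 41.3, 33.4 and 28.2 CPM in the overexpressing pools, higher at each stage and 2.07 times the control mean overall (limma adjusted p = 0.0185).

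An epithelium is a sheet of cells held together by junctions. E-cadherin and its relatives join neighbouring cells, tight junctions seal the space between them, and desmosomes tie the keratin filaments of one cell to those of the next. In the limb bud this sheet also forms the apical ridge, a thickening that secretes FGFs to the mesenchyme below it. The 3 defining markers of the sheet were present in every library: Epcam, an adhesion molecule, Cdh1, which encodes E-cadherin, and Trp63, which encodes the p63 regulator of stratified epithelia, had at least 47.0, 54.6 and 56.3 CPM. In bulk RNA of this kind, fewer epithelial cells and less RNA per epithelial cell cannot be told apart.

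The epithelial genes were lower in tips that overexpressed Meis2. Of the 38 measured, 6 fell, 0 rose and 32 did not pass (limma on log2(CPM + 1), Benjamini-Hochberg adjusted p under 0.05 over all 12065 genes). Of all genes tested, 0.680% fell and 0.787% rose. The 6 were Epcam, Cdh1, Trp63, Dsg2, Perp and St14, and they stood at 62.7% to 71.6% of their control mean. By sign 37 of the 38 were lower, beside 50.04% of all genes, and their median log2 fold change was -0.34, beside -0.00 for all genes. In 21 of the 38 the 3 overexpressing pools lay below all 3 controls, which held for 10.4% of all genes. Both the 37 and the 21 include Ocln. All genes of the table had at least 2.00 CPM in 3 libraries, and Ocln reached this through its controls alone. At an unadjusted p under 0.05, 23 of the 38 were lower and 0 were higher, beside 938 lower and 980 higher of all 12065 genes. Neither edgeR nor DESeq2 called any of the 38 higher. The summed level of the 38 was 1231, 1175 and 1247 CPM in the controls and 977, 946 and 927 CPM in the overexpressing pools, so the ranges did not overlap and the mean sum was 78.0% of control.

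**Figure D1:**
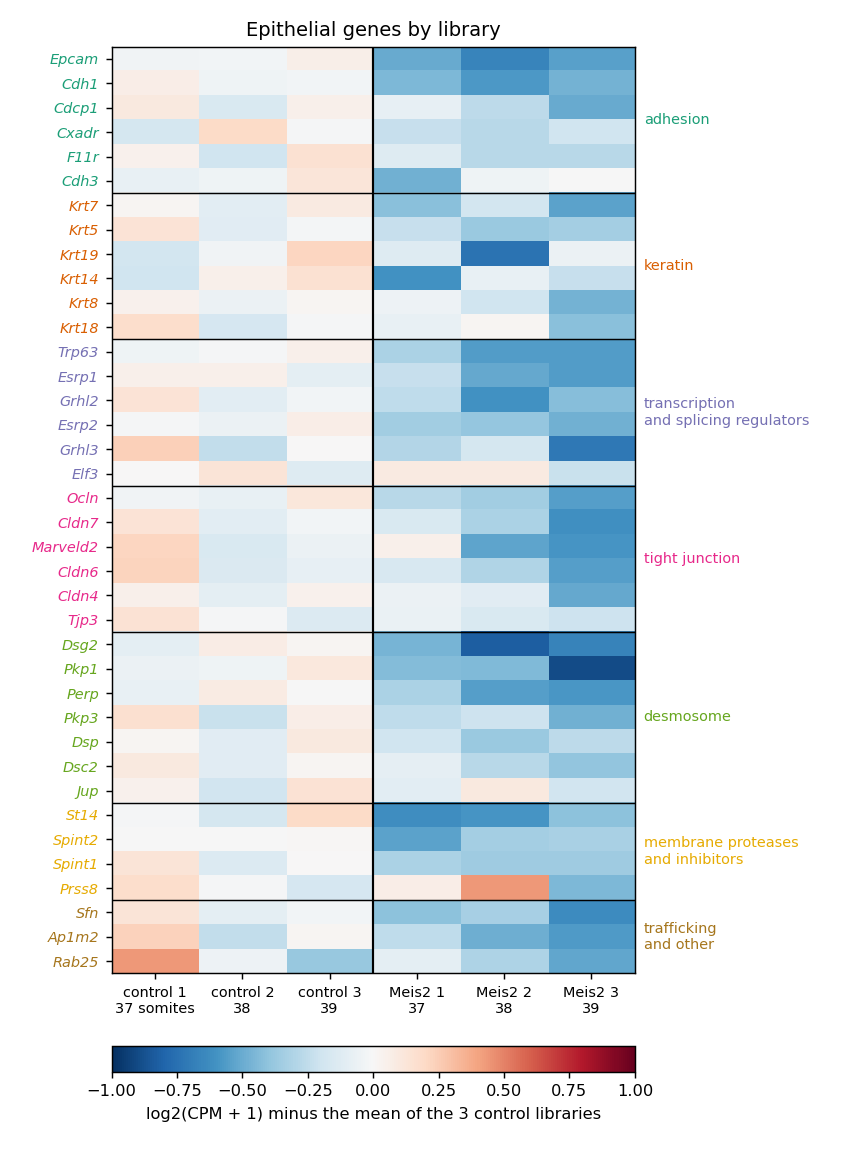
Level of each of the 38 epithelial genes in each library, as log2(CPM + 1) minus the mean of the 3 control libraries, with genes grouped by role. Columns are the 6 libraries with their somite number; blue is lower and red is higher. The 3 overexpressing columns are blue in nearly every row, and Prss8 in replicate 2 is the strongest red cell among them.

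The count of 6 depended on which libraries were included. It was 6 without overexpressing replicate 1 (with Esrp1 in place of St14), 5 without overexpressing replicate 3 and 4 without control replicate 1. It was 3 without control replicate 2 (Cdh1, Epcam and St14), and 2 (Cdh1 and Epcam) when control pool 3 or overexpressing pool 2 was left out or robust eBayes without a trend was used. Blood and vessel markers had the opposite sign in the genotype difference over all stages. All 9 erythroid genes of a marker list were higher by sign, of which 2 rose and 7 did not pass, and so were all 11 endothelial genes, of which 1 rose and 10 did not pass. Their summed levels were 2337 to 3420 CPM against 4023 to 4796 CPM for erythroid genes and 254 to 291 against 322 to 336 CPM for endothelial genes. Within a stage the sign was mixed. Of the 9 erythroid genes 3, 1 and 0 were lower at 37, 38 and 39 somites, and of the 11 endothelial genes 1, 1 and 4. The part of cell mixture in the lower epithelial levels was not tested.

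The start sites of these genes were searched for short motifs. RefSeq promoters of build GRCm38.p6, from 250 bases before to 50 bases after a start site, were held for 23 of the 38 genes in 27 windows. Of the 6 genes that fell, Epcam was searched, and Cdh1, Trp63, Dsg2, Perp and St14 were not analysed here. The E-box CACCTG, sought as CACCTG or CAGGTG so that either strand counts, was in 23 of the 27 windows (85.2%) and in 20 of the 23 genes. It was in 16.7% of the 10770 windows of genes in the expression table and in 20.2% of all 32851 windows of the reference. This E-box is known as a site of the SNAI and ZEB repressors of epithelial genes. The 2 windows of Marveld2 overlap and share 1 site, and so do those of Ocln. A match is a description of the letters and not a measured site.

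The windows of 6 genes, chosen after the matches were seen, show how the letters lie, each written 5′ to 3′ on the gene's own strand with the E-box in capitals. They are those of Epcam, which had the lowest adjusted p, of Ap1m2, Spint2 and Rab25 with 4, 3 and 2 matches, of the basal keratin Krt5 with 1, and of Jup with 0. The windows are chr17:87635729-87636028 (plus strand), chr9:21312284-21312583 (minus), chr7:29281928-29282227 (minus), chr3:88548230-88548529 (minus), chr15:101712856-101713155 (minus) and chr11:100397741-100398040 (minus).
Epcam: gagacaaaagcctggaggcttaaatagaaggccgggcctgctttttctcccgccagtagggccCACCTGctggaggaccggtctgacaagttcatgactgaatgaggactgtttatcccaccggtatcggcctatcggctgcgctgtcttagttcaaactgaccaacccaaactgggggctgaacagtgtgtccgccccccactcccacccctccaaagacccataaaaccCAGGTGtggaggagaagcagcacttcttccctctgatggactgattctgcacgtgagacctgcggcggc
Ap1m2: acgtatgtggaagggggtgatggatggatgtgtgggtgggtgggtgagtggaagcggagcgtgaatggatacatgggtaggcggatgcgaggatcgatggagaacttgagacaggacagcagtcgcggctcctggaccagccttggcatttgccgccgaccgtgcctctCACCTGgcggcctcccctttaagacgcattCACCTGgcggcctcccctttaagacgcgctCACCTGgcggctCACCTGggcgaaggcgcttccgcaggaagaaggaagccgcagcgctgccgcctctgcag
Spint2: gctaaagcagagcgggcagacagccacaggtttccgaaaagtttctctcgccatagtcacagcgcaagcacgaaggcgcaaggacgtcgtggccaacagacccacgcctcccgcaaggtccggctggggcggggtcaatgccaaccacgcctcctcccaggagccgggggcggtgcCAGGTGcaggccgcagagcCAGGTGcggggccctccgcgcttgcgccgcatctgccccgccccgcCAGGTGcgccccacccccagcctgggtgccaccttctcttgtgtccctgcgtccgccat
Rab25: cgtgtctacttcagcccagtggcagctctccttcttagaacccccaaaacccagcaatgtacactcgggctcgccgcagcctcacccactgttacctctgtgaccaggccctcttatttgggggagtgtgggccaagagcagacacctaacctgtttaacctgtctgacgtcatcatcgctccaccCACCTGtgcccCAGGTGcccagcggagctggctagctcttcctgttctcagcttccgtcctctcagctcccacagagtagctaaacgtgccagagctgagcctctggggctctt
Krt5: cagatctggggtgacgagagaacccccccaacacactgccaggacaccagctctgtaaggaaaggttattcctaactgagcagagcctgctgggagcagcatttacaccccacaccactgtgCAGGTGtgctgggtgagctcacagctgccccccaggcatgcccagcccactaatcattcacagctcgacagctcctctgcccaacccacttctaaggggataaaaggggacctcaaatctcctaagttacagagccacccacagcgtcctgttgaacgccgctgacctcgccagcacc
Jup: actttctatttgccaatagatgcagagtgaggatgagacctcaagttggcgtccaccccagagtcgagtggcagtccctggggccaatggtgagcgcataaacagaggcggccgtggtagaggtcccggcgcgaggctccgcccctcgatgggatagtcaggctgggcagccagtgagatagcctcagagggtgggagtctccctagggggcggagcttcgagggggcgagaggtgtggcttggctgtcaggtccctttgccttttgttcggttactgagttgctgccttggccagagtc

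In Epcam the E-boxes began 187 and 19 bases before the start site, and in Ap1m2 4 of them fell between 81 and 9 bases before it. Jup, Krt14 and Spint1 were the 3 genes with a window and no match, and Cldn7 had 1 window with 2 matches and 1 with none. Among genes of the other lists the E-box was in 5 of 13 windows of other epithelial genes, 5 of 11 of basement membrane genes, 2 of 8 of apical ridge genes, 4 of 19 of broadly expressed junction partners and 2 of 12 of mesenchymal genes. The GRHL motif AACCGGTT, which reads the same on either strand, was in 0 of the 27 windows, and in 0.251% of the windows of genes in the table. The letters TGACAG (or CTGTCA on the other strand), a core of MEIS binding sites that was added after the data were seen, were in 5 of the 27 windows (18.5%), beside 16.3% in genes of the table. The genes of the SNAI and ZEB repressors were named after their values were seen. Zeb1 stood at 97.9 ± 4.67 CPM (SD, n = 3) in controls and 95.3 ± 3.59 CPM (n = 3) in overexpressing tips, and Zeb2 at 8.005 ± 1.35 and 10.04 ± 2.504 CPM. Snai1 stood at 27.5 ± 6.76 and 29.3 ± 5.85 CPM, and Snai2 at 28.1 ± 0.898 and 25.6 ± 2.23 CPM. None of the 4 passed (limma adjusted p from 0.460 to 0.820). All 4 are in the list of mesenchymal genes, so these bulk values do not show their level in the ectoderm.

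Of the 6 adhesion genes, 2 fell and 4 did not pass, with a median log2 fold change of -0.26. Epcam stood at 73.2, 73.4 and 78.2 CPM in control replicates 1 to 3 and at 52.7, 47.0 and 51.02 CPM in overexpressing ones. Every overexpressing pool lay below every control (log2 fold change -0.57, SE 0.07, limma adjusted p = 0.00332). Cdh1 stood at 85.9, 79.5 and 80.1 CPM in controls and at 59.5, 54.6 and 58.6 CPM with Meis2. Its pools were also apart, with differences of -0.52, -0.53 and -0.45 at the 3 stages (log2 fold change -0.50, SE 0.07, limma adjusted p = 0.00562). Epcam and Cdh1 were the 2 genes called in all 16 alternative fits.

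Cdh3, which encodes P-cadherin and is the nearest coding neighbour of Cdh1 in the RefSeq gene order, did not pass. It stood at 123, 126 and 142 CPM in controls and at 93.2, 126 and 130 CPM with Meis2. The pool at 37 somites was low, and at 38 somites the genotypes had the same level (log2 fold change -0.18, 95% interval -0.43 to 0.08, limma adjusted p = 0.479). The ratio of Cdh1 to Cdh3 was 0.696, 0.630 and 0.566 in controls and 0.639, 0.432 and 0.452 with Meis2, lower with Meis2 at each stage, while the overexpressing pool at 37 somites lay above 2 of the controls. Cxadr, a junctional receptor of the immunoglobulin family, stood at 104 ± 13.4 CPM (SD, n = 3) in controls and 88.2 ± 2.30 CPM (n = 3) with Meis2, with pools that did not overlap. F11r, which encodes junctional adhesion molecule A, and Cdcp1, a transmembrane protein phosphorylated by Src kinases, had log2 fold changes of -0.23 and -0.28 and overlapping pools.

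**Figure D2:**
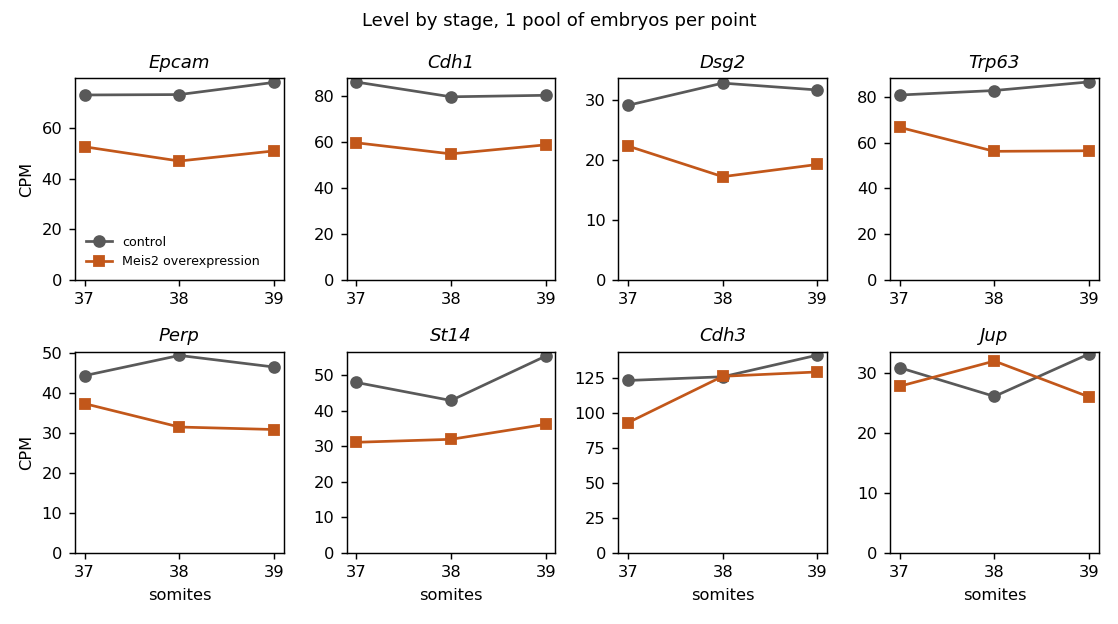
CPM against somite number for the 6 genes that fell and for Cdh3 and Jup, with 1 pool of 2 embryos per point and each axis starting at 0. The overexpressing line lies under the control line at all 3 stages for Epcam, Cdh1, Dsg2, Trp63, Perp and St14, meets it at 38 somites for Cdh3 and crosses it for Jup.

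None of the 6 keratins was called by limma, and 2 were lower at an unadjusted p under 0.05. DESeq2 called Krt5 (adjusted p = 0.0454), and edgeR called none. Keratins pair as an acidic type I with a basic type II chain, and the data held the basal pair Krt5 and Krt14 and the pair of simple epithelia Krt8 and Krt18. Krt5 stood at 86.2, 72.2 and 77.4 CPM in controls and at 66.8, 60.5 and 61.8 CPM with Meis2. Its lowest control lay above its highest overexpressing pool (log2 fold change -0.31, SE 0.08, limma adjusted p = 0.0904). Krt14, its partner, stood at 7.77, 9.42 and 10.2 CPM in controls and at 5.61, 8.55 and 7.57 CPM with Meis2, with overlapping pools. Krt8 and Krt18, which lie side by side on chromosome 15, had log2 fold changes of -0.24 and -0.16. The ratio of Krt8 to Krt18 was 0.928 to 1.10 in controls and 0.871 to 1.04 with Meis2. Krt8 has a near-identical copy among mouse transcripts, Krt8-ps, so its reads may be split. Krt7, a keratin of simple and glandular epithelia, was the other keratin with separated pools, at 11.3 ± 0.821 CPM (SD, n = 3) in controls and 8.52 ± 1.198 CPM (n = 3) with Meis2. Krt19 was low, at 3.71 ± 0.663 and 2.86 ± 0.913 CPM.

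Among the 6 regulators of epithelial fate, 1 fell and 5 did not pass, with a median log2 fold change of -0.42. Trp63 stood at 81.1, 83.1 and 86.8 CPM in controls and at 66.9, 56.3 and 56.6 CPM with Meis2. The pool at 37 somites was the nearest to the controls, and no pool overlapped (log2 fold change -0.48, SE 0.08, limma adjusted p = 0.0189). Esrp1 and Esrp2 encode splicing factors that set epithelial isoforms of genes such as the FGF receptors. Esrp1 stood at 45.6, 45.6 and 41.1 CPM in controls and at 37.4, 30.6 and 29.5 CPM with Meis2 (log2 fold change -0.44, limma adjusted p = 0.0616). Esrp2 stood at 19.0, 18.3 and 20.1 CPM in controls and at 14.9, 14.4 and 13.4 CPM with Meis2 (log2 fold change -0.40, limma adjusted p = 0.0659). Neither passed, although the pools of each were apart, and DESeq2 called Esrp1 (adjusted p = 0.0160). Grhl2, a grainyhead factor that activates Cdh1 and claudin genes, stood at 22.4 ± 2.07 CPM in controls and 16.5 ± 2.12 CPM with Meis2 with separated pools (SD, n = 3 each; log2 fold change -0.43). Its relative Grhl3, a factor of the skin barrier, had a log2 fold change of -0.40 and overlapping pools. Elf3, an ETS factor of epithelia, stood at 3.12 ± 0.367 and 3.09 ± 0.488 CPM, with an interval of -0.39 to 0.35 on the log2 scale.

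Of the 6 tight junction genes none was called by limma, edgeR or DESeq2, 2 were lower at an unadjusted p under 0.05, and the median log2 fold change was -0.35. Cldn6, an embryonic claudin, stood at 48.2, 37.0 and 38.8 CPM in controls and at 36.7, 33.1 and 27.7 CPM with Meis2. The highest overexpressing pool lay just under the lowest control. Cldn7, a claudin that binds Epcam, had a log2 fold change of -0.36 and Cldn4, another barrier claudin, one of -0.23. Ocln and Marveld2, which encode occludin and tricellulin, the latter a protein of corners where 3 cells meet, are neighbours on chromosome 13. Ocln stood at 2.26 ± 0.223 CPM (SD, n = 3) in controls and 1.49 ± 0.234 CPM (n = 3) with Meis2, with separated pools. Every gene of the table had at least 2.00 CPM in 3 libraries. Ocln met this through its 3 controls alone, so its lower sign and separated pools cannot be read as support for a fall. Its log2 fold change was -0.39 with a pseudocount of 1 and -0.58 with one of 0.1, since the pseudocount shrinks changes of low genes. Marveld2 stood at 5.70 ± 0.915 and 4.31 ± 1.37 CPM. Tjp3, a scaffold of the tight junction plaque, had the smallest difference of the group, at -0.14.

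Of the 7 desmosome genes, 2 fell and 5 did not pass, with a median log2 fold change of -0.32. Dsg2, a desmosomal cadherin, stood at 29.2, 32.9 and 31.7 CPM in controls and at 22.4, 17.2 and 19.3 CPM with Meis2. No pool overlapped, and with a pseudocount of 1 its difference was the largest of the 38, while with 0.1 that of Pkp1 was larger, at -0.70 against -0.68 (log2 fold change -0.65, SE 0.10, limma adjusted p = 0.0185). Perp, a desmosome membrane protein and a target of p63, stood at 44.3, 49.4 and 46.5 CPM in controls and at 37.3, 31.5 and 30.8 CPM with Meis2. As for Trp63, Esrp1, Cldn6 and Dsg2 among others, the overexpressing pool at 37 somites was nearest to the controls (log2 fold change -0.48, SE 0.09, limma adjusted p = 0.0305). Dsp, which encodes desmoplakin, the link to keratin filaments, stood at 92.0, 83.8 and 97.02 CPM in controls and at 78.8, 69.9 and 75.5 CPM with Meis2 (log2 fold change -0.28, limma adjusted p = 0.110). Its pools were apart and it did not pass.

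Plakophilins are plaque proteins of the desmosome. Pkp1 stood at 5.87, 5.93 and 6.71 CPM in controls and at 4.30, 4.27 and 2.85 CPM with Meis2, and its log2 fold change of -0.59 (SE 0.16) did not pass (limma adjusted p = 0.124). Pkp3 had a log2 fold change of -0.32 and Dsc2, the cadherin partner of Dsg2, one of -0.25, both with overlapping pools. Jup, which encodes plakoglobin, a catenin of desmosomes and of cadherin junctions, stood at 30.9, 26.1 and 33.2 CPM in controls and at 27.8, 31.98 and 25.99 CPM with Meis2. Its pools overlapped throughout, and the 95% interval ran from -0.31 to 0.18 (log2 fold change -0.07, limma adjusted p = 0.791). Without control replicate 3 that difference was 0.00 and positive in sign.

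Of the 4 membrane proteases and inhibitors, 1 fell and 3 did not pass. St14, which encodes the protease matriptase, stood at 48.0, 42.9 and 55.5 CPM in controls and at 31.1, 31.98 and 36.2 CPM with Meis2. All overexpressing pools were under all controls (log2 fold change -0.54, SE 0.10, limma adjusted p = 0.0325). Its 2 inhibitors did not pass. Spint2 stood at 29.1, 29.1 and 29.5 CPM in controls and at 19.8, 22.9 and 23.1 CPM with Meis2 (log2 fold change -0.40, limma adjusted p = 0.0549). Spint1 stood at 14.7 ± 1.42 and 11.4 ± 0.196 CPM (SD, n = 3 each), and the pools of either inhibitor were apart. Prss8, which encodes prostasin, a protease that acts with matriptase, stood at 4.83, 4.10 and 3.59 CPM in controls and at 4.396, 5.96 and 2.78 CPM with Meis2. It was the 1 gene of the 38 with a positive sign (log2 fold change 0.02, interval -0.47 to 0.50), and that sign turned negative in 3 of the 6 fits that left out 1 library.

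The remaining 3 genes did not pass. Sfn, which encodes the epithelial protein 14-3-3 sigma, stood at 30.5, 25.9 and 27.3 CPM in controls and at 20.7, 21.9 and 17.7 CPM with Meis2 (log2 fold change -0.46, limma adjusted p = 0.0626). Its pools were apart, DESeq2 called it (adjusted p = 0.0303), and it has a near-identical copy, Gm7850, among mouse transcripts. Ap1m2, a clathrin adaptor subunit of polarised epithelia, stood at 9.41 ± 1.70 and 6.65 ± 0.901 CPM (SD, n = 3 each) with separated pools. Rab25, a small GTPase of recycling endosomes, stood at 3.69, 2.36 and 1.68 CPM in controls and at 2.24, 1.81 and 1.42 CPM with Meis2. The control at 37 somites was high and the other pools overlapped.

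**Figure D3:**
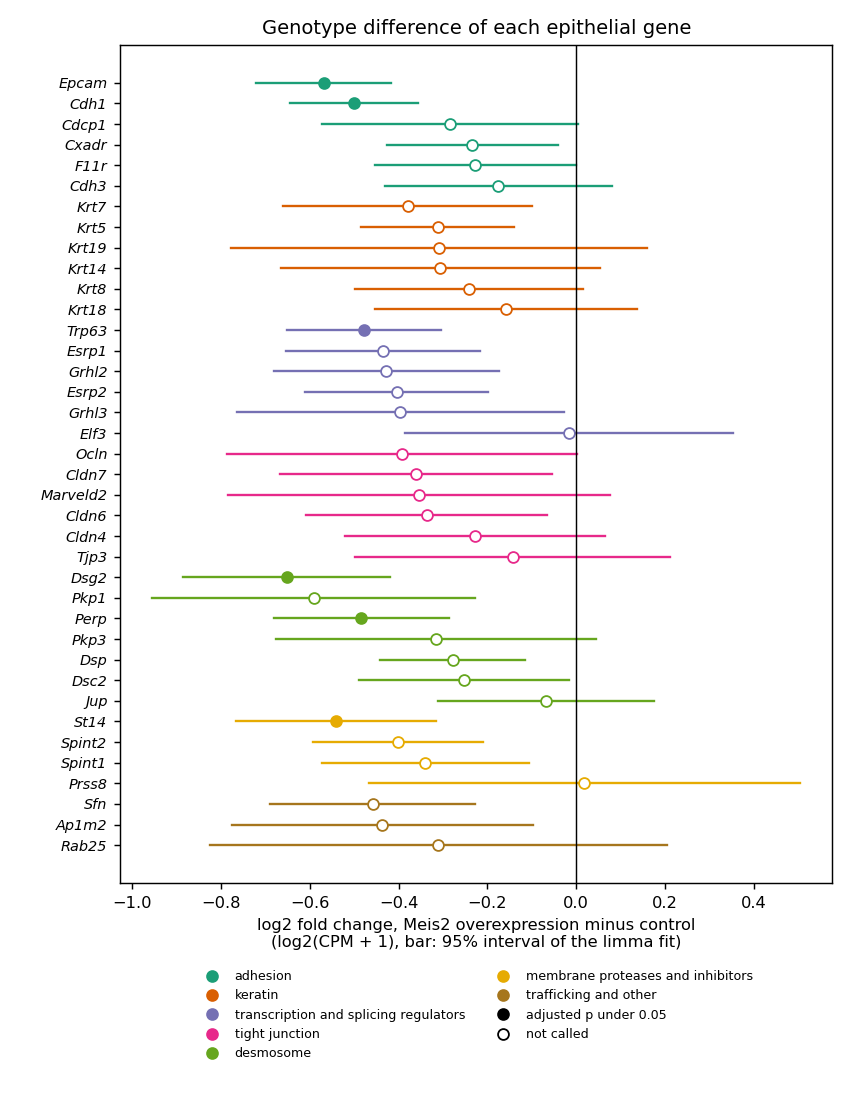
Log2 fold change of each of the 38 genes, Meis2 overexpression minus control, with the 95% interval of the limma fit, ordered within each role. Filled points passed an adjusted p of 0.05 and open points did not; 37 of the 38 points lie left of 0, from -0.65 for Dsg2 to -0.02 for Elf3, and Prss8 lies at 0.02.

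Level and precision varied across the set. Genes were ranked roughly by control CPM per kilobase of the longest coding transcript in GENCODE M21. On this scale Epcam (36.7), Krt5 (35.8), Cdh3 (29.7), Cldn6 (25.5) and Perp (23.9) were highest and Ocln (0.558) was lowest. The length of the transcripts expressed was not measured, and a gene with a shorter main transcript would be ranked too low. At a division of 20 CPM, chosen after the values were seen, 6 of the 19 genes with a higher control mean fell, and their median log2 fold change was -0.40 with SEs of 0.07 to 0.12. Of the 19 below 20 CPM none was called by limma, edgeR or DESeq2, while 7 had an unadjusted p under 0.05. Separated pools were seen in 7, Ocln among them, and the median of the 19 was -0.32 with SEs of 0.09 to 0.23. A gene such as Pkp1, at 6.17 CPM, had a larger difference than Cdh1 and missed the threshold. Among abundant genes Cdh3, Cxadr, Dsp and Jup stood between -0.07 and -0.28.

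**Figure D4:**
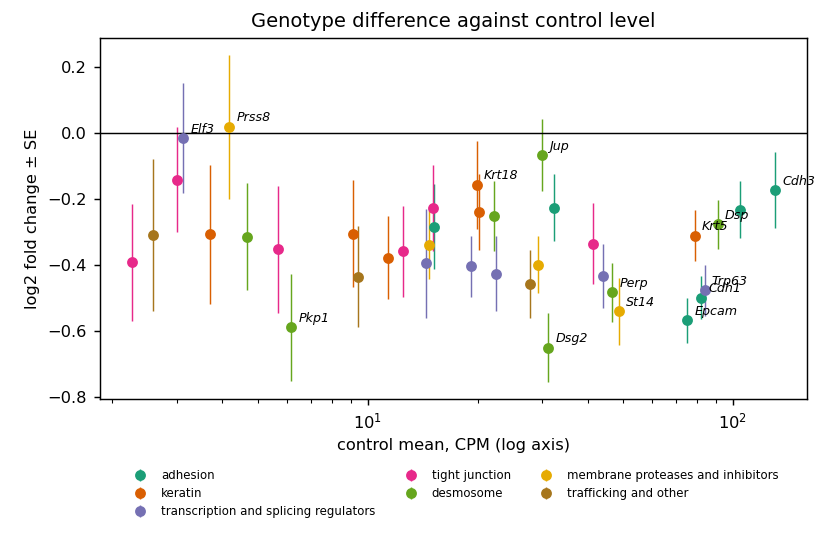
Log2 fold change ± SE of the 38 genes against their control mean in CPM on a log axis, coloured by role. The error bars are mostly shorter towards the right, although those of Cdh3 at 130 CPM and Cldn6 at 41.3 CPM are long (SE 0.12 each). The 6 genes that fell lie between 31.3 and 83.7 CPM, while Cdh3 and Jup, at 30.0 CPM, lie nearer to 0.

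The next comparison asked whether the epithelial genes changed with the age of the embryo. In a limma fit with genotype and somite number, 0 of the 38 had a slope that passed, beside 0.356% of all genes, and 5 had an unadjusted p under 0.05, beside 758 of all 12065 genes. Those 5 were Cdh3 (slope 0.17 per somite on the log2 scale), Cldn6 (-0.17), Rab25 (-0.31), Esrp1 (-0.12) and Marveld2 (-0.23), with adjusted p from 0.367 to 0.767. By sign 29 of the 38 slopes were negative, beside 6123 of all 12065. Their median was -0.07, beside -0.00 for all genes. Of the genotype differences within a stage, 36 of 38 were negative at 37 somites (median -0.31), 32 at 38 somites (median -0.24) and 38 at 39 somites (median -0.47). Of all 12065 genes, 6049, 6028 and 5990 were lower at 37, 38 and 39 somites. Each stage had 1 pool per genotype. Whether slopes differed between genotypes was tested with an interaction term in limma, which called 0 of the 38 and 0 (0%) of all 12065 genes. At an unadjusted p under 0.05 it held 0 of the 38 and 240 of all genes.

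Other genes of the sheet and of its attachment to the basement membrane moved in the same direction. Of 25 measured epithelial genes outside the set, 2 fell, 0 rose and 23 did not pass, with a median log2 fold change of -0.30 and 23 of 25 lower by sign. Wnt6, an ectodermal WNT ligand, fell from 30.1 ± 2.18 to 20.6 ± 1.83 CPM (SD, n = 3 each; log2 fold change -0.53, limma adjusted p = 0.0262). Of 11 genes that attach epithelium to the basement membrane, 2 fell, 0 rose and 9 did not pass, with a median of -0.22. Frem1, a matrix protein beneath embryonic epithelia, fell by 0.38 on the log2 scale. Which tissue made the RNA of these attachment genes was not tested. Of 13 apical ridge genes, 6 fell, 0 rose and 7 did not pass, with a median of -0.47. The ridge ligand Fgf8 fell from 94.6 ± 5.35 to 56.5 ± 10.2 CPM, and Sp6, Rspo2 and Fgf4 fell by 0.66, 0.73 and 0.83 on the log2 scale.

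Junction partners listed as broadly expressed were centred on 0, and the tissue that made their RNA was not tested. Of 21 such partners none was called by limma, edgeR or DESeq2, 1 was lower at an unadjusted p under 0.05, and their median was -0.00. Ctnnb1, which encodes beta-catenin, the partner of E-cadherin, had 1784 ± 31.0 CPM (SD, n = 3) in controls and 1583 ± 65.3 CPM (n = 3) with Meis2 (log2 fold change -0.17, limma adjusted p = 0.194), and Ctnna1, which encodes alpha-catenin, was at -0.09. Of 14 mesenchymal genes none was called by limma or edgeR, with a median of 0.09, 1 lower and 3 higher at an unadjusted p under 0.05. Cdh2, which encodes N-cadherin, was at -0.26 (limma adjusted p = 0.0775) and Prrx1, a limb mesenchyme regulator, at 0.37 (limma adjusted p = 0.130), which DESeq2 called higher (adjusted p = 0.00920). The 3 macrophage markers measured, of 8 listed, had summed levels of 10.99 to 14.2 CPM in controls and 10.1 to 13.3 CPM with Meis2, with Cx3cr1 at 0.23 and Csf1r at -0.18. Among blood and vessel genes Slc4a1, the red cell anion exchanger, rose by 0.65, Hba-x, an embryonic globin, by 0.69 and Kdr, a VEGF receptor, by 0.46.

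**Figure D5:**
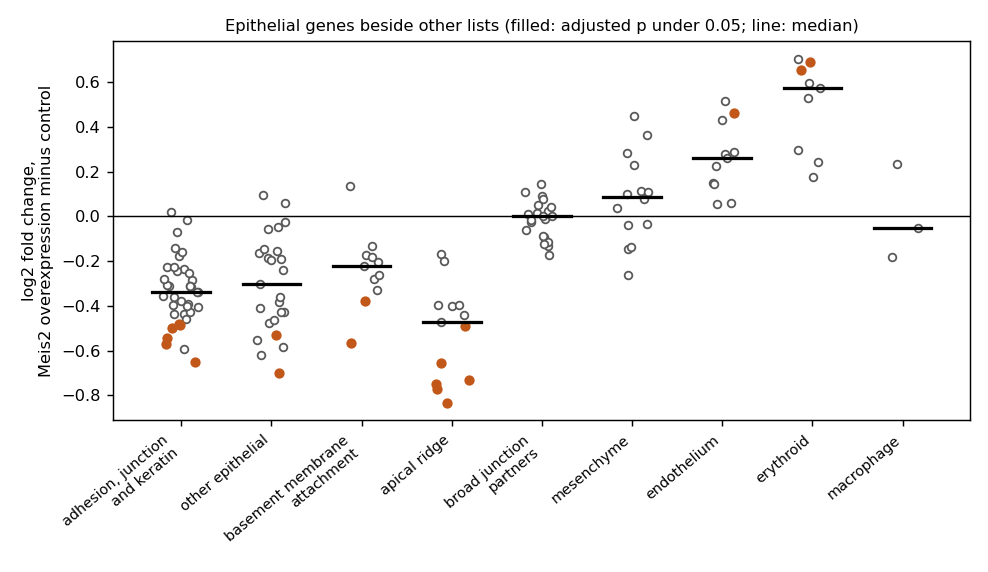
Log2 fold change of the 38 adhesion, junction and keratin genes and of the genes of 8 other lists, with 1 point per gene, filled where the adjusted p was under 0.05, and a line at each median. The 4 columns on the left have medians from -0.22 to -0.47. The junction partners and mesenchyme lie about 0, and endothelium and erythroid genes lie above it.

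The last comparison set the 38 genes against the other epithelial genes in the same library. The mean log2(CPM + 1) of the 25 epithelial genes outside the set was subtracted from every gene, and the limma fit was repeated. On this scale the median difference of the 38 was -0.04, with 25 lower and 13 higher, while all genes had a median of 0.30. Relative to the reference, 2 of the 38 were called lower, Dsg2 (-0.35, SE 0.12, limma adjusted p = 0.0262) and Epcam (-0.27, SE 0.10, limma adjusted p = 0.0316), and 0 were called higher. Of all genes 0.506% were called lower and 52.1% higher, which makes the adjustment lenient, and the unadjusted p of Dsg2 and Epcam was 0.0102 and 0.0135. Jup stood highest among the desmosome genes on this scale, at 0.23 (SE 0.12, limma adjusted p = 0.0942). The calls of Dsg2 and Epcam were lost when control pool 3, overexpressing pool 2 or overexpressing pool 3 was left out, and leaving out control pool 2 kept that of Epcam. Leaving out overexpressing pool 1 kept both and added Cdh3, called higher. Taken relative to the mean of the 38 themselves, Dsg2 alone of the 38 was called, beside 7659 of all 12065 genes in either direction. Dsg2 already had the lowest log2 fold change of the 38 in the main fit, so this call is no separate support.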

How the data were processed

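PolyA RNA of 6 pools (3 control, 3 overexpressing) was sequenced from TruSeq RNA v2 libraries, whose kit does not mark strand. Per the submitters' processing notes, the tools were cutadapt 1.2.1, RSEM 1.17 and edgeR (no version stated), and the genome build was NCBIM37. The authors deposited CPM values on an effective library size for 12065 genes. The filter on low genes behind the table is not given in the sources used here, but every gene in it had at least 2.00 CPM in 3 libraries.

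All deposited values were within 0.001 of whole multiples of 1 read, so read counts were recovered for the count tests used as alternatives. For overexpressing replicate 3 this rests on the test made here alone, since fewer than 100 of its values were low enough for the automatic check of that step. TMM sizes computed from these reads equalled the authors' sizes. Depth was 7622698 to 15395447 reads, and 3 reads were worth 0.194 to 0.388 CPM. Intervals are for the difference of the group means. They rest on the spread over pools, which limma moderates with that of other genes, and not on a larger population.

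The genotype test was a two-sided limma fit (version 3.58.1, R 4.3.3) of log2(CPM + 1) on genotype alone, with eBayes and a mean-variance trend, and p-values were Benjamini-Hochberg adjusted over all genes. The pseudocount understates changes of low genes. Fits with somite number, its interaction with genotype and an epithelial reference followed the same form. Alternatives were pseudocounts of 0.1 and 5, edgeR 4.0.16, DESeq2 1.42.0, robust eBayes without a trend, filters, median-of-ratios scaling, somite number as a covariate, a replicate block and leaving out each library. An exact test of 3 pools against 3 cannot go below p = 0.1. Fits were tested on simulated data. A gene was said to have a near-identical copy where blastn 2.17.0 aligned it to another gene's GENCODE M21 transcript at 97% identity, for 100 bases or more and 50% of whichever transcript was shorter.

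The genes and the other lists were chosen with earlier results of these data known. All 38 measured genes could be named. From other lists up to 4 called genes with the smallest p were named, or else the 2 with the smallest p, and some called genes of those lists are not reported here. Zeb1, Zeb2, Snai1 and Snai2, the gene ratios, the interaction alternatives and the genes in the stage plot were chosen after values were seen.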

Additional observations from a re-analysis of the deposited data

How the results depend on the processing

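The count of 6 epithelial genes that fell was 2 with robust eBayes without a trend and ranged from 2 to 6 when 1 library was left out. It was 9 with DESeq2 (Esrp1, Krt5 and Sfn added) and 9 with somite number as a covariate (Esrp1, Sfn and Spint2 added). Over the 16 alternatives Epcam and Cdh1 passed in 16, Dsg2 and Trp63 in 12, St14 in 11 and Perp in 10. The count over all genes, 177, was 86 with robust eBayes without a trend, 290 with DESeq2, 340 with the somite covariate and 56 to 162 with 1 library left out. Relative to other epithelial genes the count of 2 was 5 with a pseudocount of 5, 1 with the 38 genes as the reference and 0 to 3 in either direction with 1 library left out, where 3 includes Cdh3 called higher without overexpressing replicate 1. With 1 library left out, the log2 fold change ranged from -0.0824 to 0.0866 for Elf3 (positive without control replicate 2, 0.05, and without overexpressing replicate 3), from -0.16 to 0.0048 for Jup and from -0.19 to 0.25 for Prss8 (-0.06 without control replicate 3 and -0.0061 without overexpressing replicate 1). The causes were not tested. Same-numbered pools had correlations of 0.0328, -0.152 and 0.381 across genes, so the numbers were not taken as pairs, and 2 of 6 libraries correlated best with their own number. With a replicate block 7 of the 38 genes and 258 of all genes were called. The filter of 1 CPM removed no gene, so the alternative without it repeats the main fit and is no separate check. The median-of-ratios factors were 1.0005 to 1.0024, so that alternative was close to the main fit too. With 3 pools a genotype, the 19 genes under 20 CPM had SEs up to 0.23 and none of them passed.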
